A study of Mus musculus with 9 samples.

Results

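Intraepithelial lymphocytes (IELs) of the small intestine were compared with Naive-like cells of lymph nodes, both being γδ T cells, on 6 of the 9 arrays of the study. The comparison took the log2 values of 22180 genes, each represented by its array row of highest mean among the rows that carry exactly 1 gene symbol. The 3 IEL arrays were labelled as intestinal intraepithelial cells, with small intestine in the array description, and the 3 Naive-like arrays as cells of peripheral lymph nodes. The remaining 3 arrays held Type-1 γδ T cells of lymph nodes, which shared in the estimate of the spread and are set beside some genes below. All mice were C57BL/6, and no treatment or genetic change separates the groups in the labels. The sources used here do not give age, sex, the gates of the sort or the number of mice behind each array, so the p-values measure only the spread between these samples. IELs were shaken free of pieces of gut in warm buffer and collected on a density gradient, whereas lymph nodes were mashed. Tissue, preparation and subset therefore differ together, and their parts in any difference cannot be told apart.

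γδ T cells carry an antigen receptor made of γ and δ chains. In the intestine they lie between the epithelial cells that line the gut, where they are held by adhesion to those cells and are known for stores of cytotoxic granule proteins, for natural killer (NK) receptors and often for a CD8αα homodimer. Naive-like γδ T cells recirculate through lymph nodes, which they leave along a gradient of sphingosine 1-phosphate, and carry surface receptors and transcription factors known from naive T cells.

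At an adjusted p under 0.05, 1152 genes differed, 5.19% of those tested; 792 of them (3.57%) were higher in IELs and 360 (1.62%) lower. A difference of 1 on the log2 scale is a 2-fold change, and n = 3 arrays per subset throughout. Differences reached 4-fold in 221 of the higher and 88 of the lower genes, and 32-fold in 20 and 2. Of the genes higher in IELs, 336 (42.4%) had a Naive-like mean under the median level of all genes, 4.52; of the genes lower in IELs, 98 (27.2%) had an IEL mean under it. Protein-coding genes were called in 753 cases in the higher and 329 in the lower direction out of 18961, 5.71%, and long non-coding RNA genes in 25 and 13 cases of 1926, 1.97%. Over genes the standard error had a median of 0.24, and arrays of 1 subset correlated at 0.947 to 0.982 over genes. Every array of 1 group lay above every array of the other in 4464 genes, 20.1% of all tested, with IELs above in 10.9% and below in 9.25%, and Nr4a3 was the 1 called gene whose groups overlapped. Replicate 3 of each subset carries a date code in its description that the others lack. All 1152 called genes had the same sign in the dated pair as in the undated arrays. For every called gene but Nr4a3 this follows from the lack of overlap, so it does not test the date code. Of 56 called genes with several rows, 44 had all rows on the same side and 7 had all rows called.

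**Figure D1:**
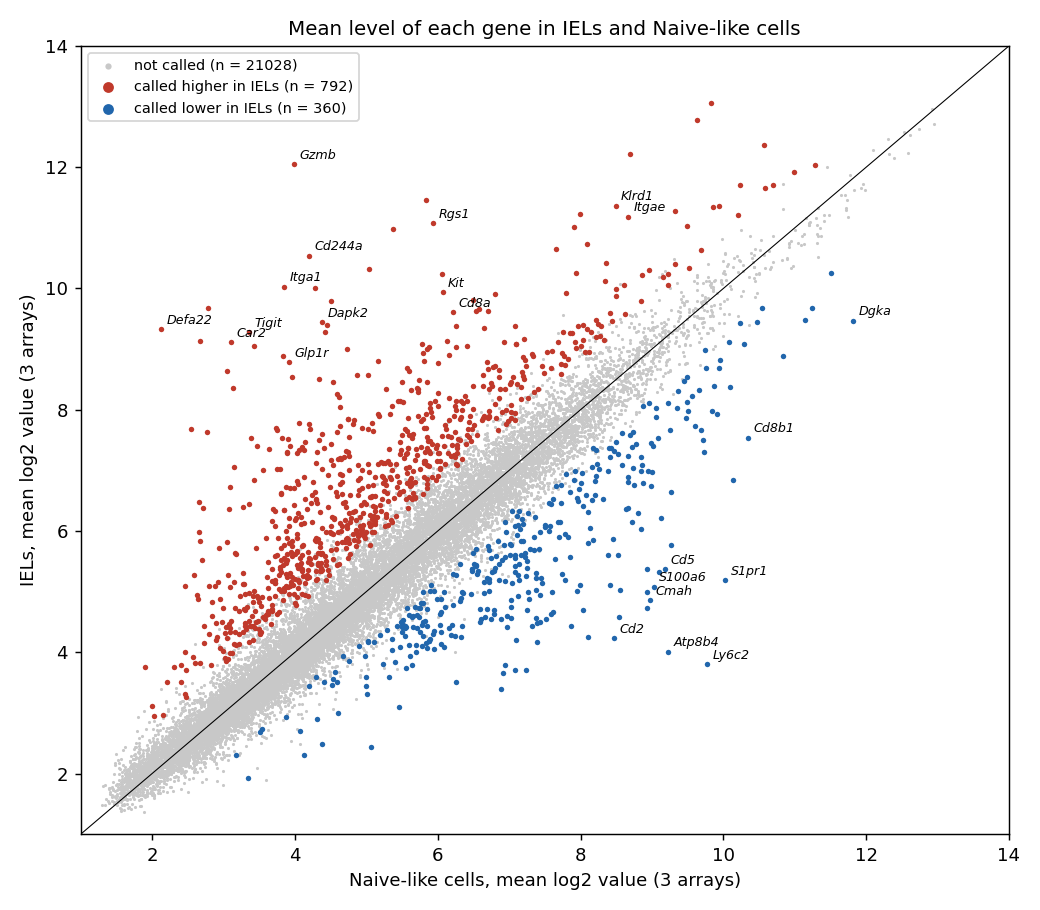
Mean log2 value of each of the 22180 genes over 3 IEL arrays (vertical axis) against the mean over 3 Naive-like arrays (horizontal axis), with the line of equal level. The 792 genes called higher in IELs (red) lie above the line and the 360 called lower (blue) below it; Gzmb, at 12.05 against 3.98, is farthest above and Ly6c2, at 3.80 against 9.77, farthest below.

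The label of γδ T cells was set against markers first. Of 8 measured T cell identity genes 1 differed (2 without IEL replicate 1), against 5.19% of all genes. It was Thy1, the surface protein Thy-1 of mouse T cells, lower in IELs by 2.58 ± 0.19. Cd3e, a chain of the CD3 complex, read 11.48, 11.97 and 11.71 in the IEL and 11.28, 10.06 and 11.19 in the Naive-like arrays and did not pass (adjusted p = 0.163), though it did with the description set as a block (adjusted p = 0.049). The 2 γδ receptor segments with a row of 1 symbol, Trgv5 and Trgv6, differed by 1.12 ± 0.39 and 0.24 ± 0.36 without passing (Trgv5 did with array weights (adjusted p = 0.05)); the other receptor chain genes are not analysed here. Cd4 did not pass (difference -0.19 ± 0.21), and its values of 3.10, 3.56 and 3.80 in the IEL and 3.60, 3.70 and 3.72 in the Naive-like arrays were dim in both groups. The 2 CD8 genes went opposite ways: Cd8a, which encodes the α chain, read 9.31, 9.96 and 9.57 in the IEL and 6.30, 5.40 and 6.95 in the Naive-like arrays, higher by 3.40 ± 0.44 (adjusted p = 0.00044). Cd8b1, which encodes the β chain of the αβ heterodimer, read 8.88, 7.46 and 6.27 in the IEL and 10.33, 10.20 and 10.50 in the Naive-like arrays, lower by 2.81 ± 0.47 (adjusted p = 0.0031). The Cd8b1 values varied among the IEL arrays, IEL replicate 1 being the highest, but all 3 lay below the Naive-like arrays.

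Markers of epithelial cells were higher in the IEL arrays. Their values are given here once, to be read with every gene below that epithelial cells also express. Of 17 enterocyte markers 10 were called higher, of 20 pan-epithelial and junction markers 9 and of 10 Paneth cell markers 8. Of 9 goblet cell markers 4 were called higher and of 6 intestinal stem cell markers 1. None was called lower, and over all genes 3.57% were called higher and 1.62% lower. The mean log2 value over the enterocyte markers was 5.31, 5.90 and 5.14 in IEL replicates 1 to 3 and 3.85 to 3.96 in the Naive-like arrays. Over the Paneth cell markers it was 6.63, 7.34 and 6.61 against 3.50 to 3.80, and over the goblet cell markers 4.63, 5.50 and 4.94 against 3.71 to 4.03. IEL replicate 2 was the highest of the IEL arrays in all 3 of these lists. Defa22, a defensin gene of Paneth cells, read 8.79, 9.68 and 9.52 in the IEL and 2.43, 1.59 and 2.36 in the Naive-like arrays. Several Paneth cell markers are defensin genes with near identical members, so their rows may share signal and their calls may not be separate observations. The keratin gene Krt8 differed by 1.79 ± 0.23, the mucus gene Zg16 by 2.21 ± 0.29 and the stem cell marker Olfm4 by 2.78 ± 0.28. RMA values have no true zero, and the part of epithelial RNA in other differences was not tested. None of 11 enteroendocrine and tuft cell markers and none of 9 B cell markers passed. The 1 measured red blood cell marker did not pass either. At an unadjusted p under 0.05 by limma's test stood 2, 1 and 0 members of these lists, against 3150 of all 22180 genes. The B cell marker Blk differed by -0.81 (adjusted p = 0.058) and passed in 7 alternatives (adjusted p 0.024 to 0.047). They were the fit without IEL replicate 3, the filter on dim genes, the other estimate of the spread, array weights, either block and the date code as a term.

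Fewer markers of cells of the blood and connective tissue passed, to be read against the 5.19% of all genes called. In lists this short, 1 or 2 calls cannot be told from that share. Of 17 macrophage and dendritic cell markers 2 were higher, the integrin genes Itgax and Itgam. The Itgam call was lost without any 1 of the IEL and Naive-like replicates or Type-1 replicate 1 or 3 (adjusted p 0.052 to 0.205). The list's mean was 4.91, 5.00 and 4.88 in IELs against 4.18 to 4.86 in the Naive-like arrays. Of 12 mast cell and granulocyte markers Kit alone passed, and the list's mean was 3.73, 3.71 and 3.88 in IELs against 3.27 to 3.69 in the Naive-like arrays. The mast cell protease genes Cpa3 and Mcpt1 differed by 0.58 ± 0.26 and 0.17 ± 0.22 without passing. Irf4 was the 1 plasma cell marker of 7 that passed (2 without Type-1 replicate 2). The part of RNA from macrophages, dendritic, mast or plasma cells in these values was not tested. Pecam1, which encodes the adhesion molecule CD31 of endothelium and leukocytes, was the 1 stromal or endothelial marker of 12 that passed, and it was lower in IELs by 2.81 ± 0.30.

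**Figure D2:**
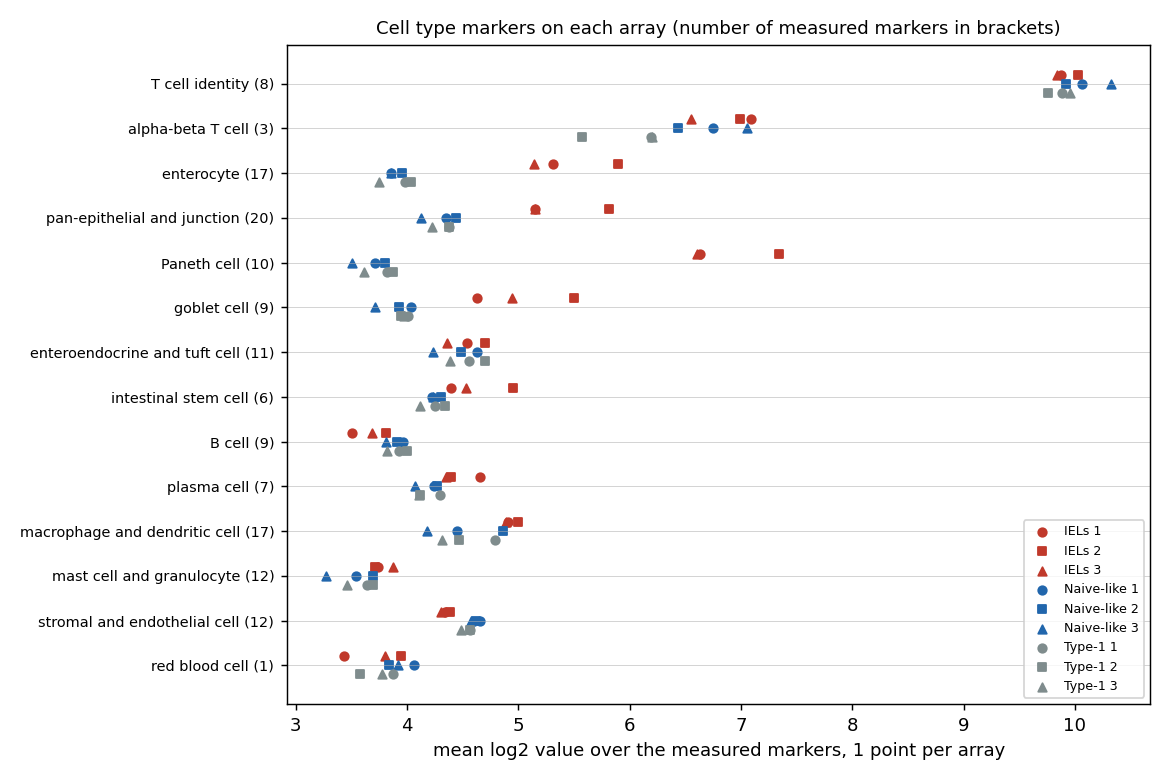
Mean log2 value over the measured markers of each cell type (horizontal axis), 1 point for each of the 9 arrays, coloured by subset and shaped by replicate. The enterocyte, pan-epithelial, Paneth and goblet cell rows show the 3 IEL arrays to the right of all lymph node arrays, farthest in the Paneth row, while T cell identity overlaps between subsets.

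The groups of genes that follow are described by how many members passed in each direction and by their median difference, to be read against the 3.57% higher and 1.62% lower over all genes and a median difference of -0.01. In bulk RNA, fewer cells that carry a transcript and less of it per cell cannot be told apart.

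Granule proteins and death ligands were the group with the highest share of higher calls: 15 of 23 members were higher and none lower, with a median difference of 1.10. Granzymes are serine proteases that enter target cells through pores made by perforin. Gzma read 11.49, 11.55 and 11.34 in the IEL and 5.39, 6.26 and 5.83 in the Naive-like arrays (difference 5.63 ± 0.34, adjusted p = 1.1e-06), and Gzmk 9.10, 8.41 and 8.09 in the IEL and 4.00, 3.75 and 4.11 in the Naive-like arrays. Gzmc, another granzyme, was higher by 2.64 ± 0.34. Prf1, the perforin gene, read 8.31, 8.68 and 8.54 in the IEL and 7.27, 6.65 and 7.71 in the Naive-like arrays, higher by 1.30 ± 0.27 (adjusted p = 0.013), and Naive-like cells carried it above the median level of all genes. The Prf1 call was lost without IEL replicate 2 or 3 or Naive-like replicate 2 (adjusted p 0.053 to 0.066). Fasl, which encodes the death ligand of Fas, read 9.09, 9.76 and 9.33 in the IEL and 4.40, 4.62 and 4.33 in the Naive-like arrays, without overlap between groups. Tnfsf10, which encodes the death ligand TRAIL, was higher by 1.83 ± 0.25. The protease inhibitors Serpinb9, which blocks granzyme B, and Serpinb6b were higher by 1.51 ± 0.27 and 2.05 ± 0.27. Srgn, the proteoglycan core on which granule proteins are packed, was higher by 1.09 ± 0.18, and Slamf7, a receptor of cytotoxic cells, by 3.14 ± 0.22. Between IELs and Type-1 cells Slamf7 did not differ by the test (difference 0.47 ± 0.22, adjusted p = 0.308).

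Of 24 NK receptors and adaptors 12 were higher in IELs and 1 lower, with a median of 1.18. Both adaptors that lend receptors an activating motif were among them: Tyrobp, which encodes DAP12, read 10.84, 10.32 and 9.79 in the IEL and 4.39, 5.62 and 5.09 in the Naive-like arrays, and Fcer1g, the Fc receptor γ chain, 11.14, 10.95 and 10.84 in the IEL and 4.94, 6.26 and 4.93 in the Naive-like arrays. Type-1 cells lay between, at 7.09, 7.18 and 6.71 for Tyrobp and 7.52, 7.63 and 8.01 for Fcer1g. Klrd1, which encodes CD94, read 11.51, 11.17 and 11.41 in the IEL and 8.33, 8.55 and 8.60 in the Naive-like arrays, higher by 2.87 ± 0.20; its partners Klrc1 and Klrc2 of the NKG2 family differed by 1.28 ± 0.46 and 0.95 ± 0.35 and did not pass. Klrk1, the gene of NKG2D, differed by 0.91 ± 0.33 and did not pass either. Klrc1 did pass in a fit of the 6 compared arrays (adjusted p = 0.014) and without Type-1 replicate 1 (adjusted p = 0.022), and Klrk1 in a fit of the 6 compared arrays (adjusted p = 0.046). Of the Ly49 family Klra5 read 8.35, 8.95 and 9.36 in the IEL and 3.80, 4.00 and 3.68 in the Naive-like arrays, and Klra9 was higher by 1.11 ± 0.21; Ly49 genes are close paralogs, so an array row may pick up more than its own gene. Klre1 and Klrh1, further lectin-like receptors, were higher by 5.60 ± 0.34 and 3.67 ± 0.29. Type-1 cells read 8.51, 8.75 and 8.42 for Klre1, and IELs did not differ from them by the test (difference 0.09 ± 0.34, adjusted p = 0.935). Of the adaptors of the SLAM family that bind the receptor encoded by Cd244a, the pair went opposite ways. Sh2d1b1, which encodes EAT-2, read 5.93, 7.07 and 7.17 in the IEL and 2.94, 3.24 and 3.10 in the Naive-like arrays, higher by 3.63 ± 0.32, and Sh2d1a, which encodes SAP, read 5.02, 4.71 and 4.87 in the IEL and 7.08, 6.53 and 7.46 in the Naive-like arrays, lower by 2.16 ± 0.28.

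Co-receptors of T cells changed in both directions: 13 of 30 were higher and 8 lower. The CD200 receptor family led the higher members. Cd200r1, the inhibitory receptor for CD200, read 8.46, 8.29 and 8.34 in the IEL and 2.84, 2.78 and 3.80 in the Naive-like arrays; Cd200r2 and Cd200r4, related receptors that pair with activating adaptors, were higher by 6.46 ± 0.57 and 3.97 ± 0.36. Lilrb4a, an inhibitory receptor of the leukocyte immunoglobulin-like family, read 9.16, 9.73 and 10.49 in the IEL and 3.77, 4.24 and 5.52 in the Naive-like arrays, and the groups stood apart although each spread over more than 1 unit. Lag3, Ctla4, Havcr2 (TIM-3) and Cd160, which act as inhibitory receptors of T cells, were higher by 2.61 ± 0.24, 2.65 ± 0.32, 1.34 ± 0.18 and 2.04 ± 0.22. Pdcd1, which encodes PD-1, did not follow them, at 3.88, 5.08 and 5.33 in the IEL and 5.33, 4.84 and 5.30 in the Naive-like arrays (difference -0.39 ± 0.41, adjusted p = 0.806). Tnfrsf9, a costimulatory receptor of activated T cells, was higher by 2.14 ± 0.21. On the lower side stood the costimulatory receptor genes of naive cells: Cd28 read 3.96, 4.09 and 4.79 in the IEL and 6.06, 5.91 and 6.58 in the Naive-like arrays, lower by 1.90 ± 0.26, and Cd27 7.16, 8.06 and 8.39 in the IEL and 9.42, 9.14 and 9.86 in the Naive-like arrays, lower by 1.61 ± 0.30. Btla, an inhibitory receptor that binds HVEM, was lower by 2.55 ± 0.31. Cd2, the receptor for CD48, read 3.94, 4.39 and 4.37 in the IEL and 8.32, 8.60 and 8.48 in the Naive-like arrays and Cd5, which damps antigen receptor signals, 5.20, 5.22 and 5.70 in the IEL and 9.19, 8.90 and 9.45 in the Naive-like arrays; both sets lay more than 3 log2 units apart throughout.

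Signalling below the antigen receptor also split, with 7 of 35 members higher and 5 lower and a median of 0.01, which took the opposite sign with array medians subtracted (-0.02) or arrays quantile normalized again (-0.12). Dgka, which encodes a kinase that removes diacylglycerol, read 8.90, 9.55 and 9.95 in the IEL and 11.65, 11.71 and 12.08 in the Naive-like arrays, lower by 2.34 ± 0.27 (adjusted p = 0.00017). Prkcq, the diacylglycerol-driven kinase PKCθ, was lower by 1.98 ± 0.21, and Ubash3a, a phosphatase-like inhibitor of receptor signals, by 2.01 ± 0.24. Plcg2, the phospholipase best known from B and NK cells, read 6.41, 7.67 and 7.92 in the IEL and 4.03, 4.48 and 3.86 in the Naive-like arrays, higher by 3.21 ± 0.35; in Type-1 cells it read 4.59, 4.33 and 4.06, overlapping with Naive-like cells. Trat1, a receptor-associated adaptor, and Ptpn22, a phosphatase that opposes receptor kinases, were higher by 1.49 ± 0.22 and 1.43 ± 0.26. Clnk, an adaptor outside that list and among the 30 most increased genes, read 6.98, 7.82 and 7.79 in the IEL and 3.81, 3.56 and 2.78 in the Naive-like arrays. The number of members called, 12 in all, was 7 with IEL replicate 2 left out and 6 with IEL replicate 3 or Naive-like replicate 1 left out.

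Of 19 integrin chains 6 were higher and 2 lower. Integrins are αβ pairs that bind cells to matrix or to other cells. Itga1, the collagen-binding α1 chain, read 9.55, 10.11 and 10.42 in the IEL and 3.56, 4.00 and 3.99 in the Naive-like arrays. Itgae, the αE chain that binds E-cadherin with β7, read 10.76, 11.40 and 11.38 in the IEL and 8.26, 8.65 and 9.10 in the Naive-like arrays, higher by 2.51 ± 0.30. In Type-1 cells Itgae read 6.05, 5.85 and 6.78, below the Naive-like arrays, and the direct difference between IELs and Type-1 cells was 4.95 ± 0.30 (adjusted p = 1.1e-06). Itgax, the αX chain CD11c, read 8.87, 9.47 and 9.52 in the IEL and 4.39, 4.84 and 4.03 in the Naive-like arrays. Itgal, the αL chain of LFA-1, read 6.22, 6.98 and 7.24 in the IEL and 8.60, 8.40 and 8.99 in the Naive-like arrays, lower by 1.85 ± 0.33. Itga4, which pairs with β7 or β1, read 7.56, 8.30 and 9.24 in the IEL and 9.94, 10.03 and 10.32 in the Naive-like arrays, lower by 1.73 ± 0.36, a call that was lost without IEL replicate 2 or Naive-like replicate 3 (adjusted p 0.058 to 0.066). Itga2 and Itgav were called higher, by 1.78 ± 0.46 and 1.43 ± 0.30; the Itga2 call was lost without IEL replicate 2 or 3 or Naive-like replicate 1, 2 or 3 or Type-1 replicate 2 (adjusted p 0.056 to 0.186) and the Itgav call without IEL replicate 2 or 3 or Naive-like replicate 1 (adjusted p 0.058 to 0.071). The second row of Itgav differed by 0.10, and the mean of its rows gave 0.77. The number of chains called, 8 in all, was 4 with IEL replicate 2 left out and 5 with IEL replicate 3 or Naive-like replicate 1 or Naive-like replicate 3 left out. Itgb7, the β7 chain, differed by -0.28 ± 0.21 and did not pass.

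Receptors that place lymphocytes in tissue changed both ways, 5 of 29 higher and 6 lower. S1pr1, the sphingosine 1-phosphate receptor used to leave lymph nodes, read 4.53, 5.31 and 5.74 in the IEL and 9.90, 9.83 and 10.36 in the Naive-like arrays, and Ccr7, the receptor for entry into lymph nodes, 4.21, 5.02 and 4.69 in the IEL and 7.55, 7.32 and 7.89 in the Naive-like arrays. Ccr9, the receptor for the small intestinal chemokine CCL25, differed by 0.11 ± 0.19, with 6.99, 7.20 and 7.39 in the IEL and 7.26, 6.95 and 7.03 in the Naive-like arrays. In Type-1 cells Ccr9 read 4.64, 4.95 and 4.74, and IELs exceeded these by 2.42 ± 0.19 (adjusted p = 1.3e-05). Of orphan and lipid receptors, Gpr34 read 8.23, 8.22 and 8.33 in the IEL and 4.53, 4.51 and 4.72 in the Naive-like arrays, Gpr55 7.01, 8.05 and 8.12 in the IEL and 4.53, 4.96 and 4.40 in the Naive-like arrays, and Gpr174, a lysophosphatidylserine receptor, was lower by 1.40 ± 0.23. Cxcr3, the receptor of interferon-induced chemokines, was higher by 1.25 ± 0.18, at 8.05, 7.96 and 7.68 in the IEL and 6.61, 6.64 and 6.69 in the Naive-like arrays, while Type-1 cells read 8.53, 8.56 and 8.65. Ccr4 was lower by 1.37 ± 0.24. Of 23 genes for G proteins and for regulators of G protein signalling (RGS), which shorten such signals, 5 were higher and 3 lower. Rgs1 read 11.26, 10.81 and 11.17 in the IEL and 5.20, 6.82 and 5.78 in the Naive-like arrays, Rgs2 was higher by 2.33 ± 0.36, Rgs9 by 1.45 ± 0.23 and Rgs16 by 1.06 ± 0.18, and Rgs18 was lower by 1.41 ± 0.25. Gng2, a G protein γ subunit, was the other higher member, at 0.89 ± 0.22, and lost its call without IEL replicate 1, 2 or 3 or Naive-like replicate 1 or 3 (adjusted p 0.05 to 0.127). The 8 calls of this list were 5 with Naive-like replicate 3 left out.

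**Figure D3:**
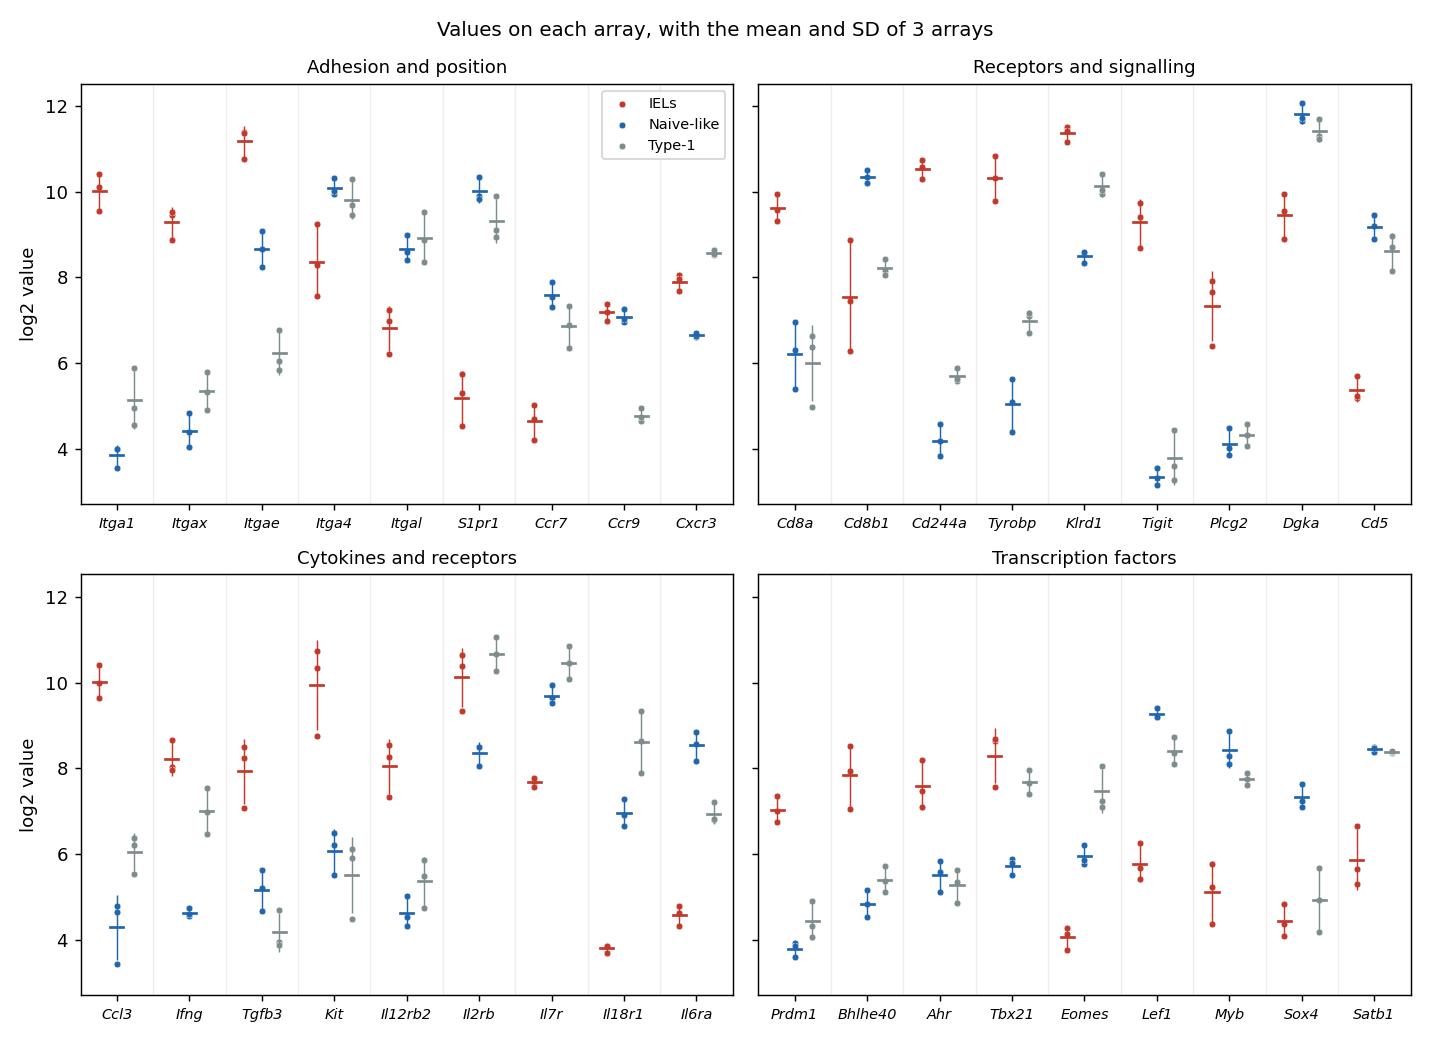
Log2 values (vertical axis) of 36 genes on each of the 9 arrays, 1 point per array, with the mean (horizontal dash) and SD (line) of the 3 IEL (red), Naive-like (blue) and Type-1 (grey) arrays. IEL arrays stand apart from both lymph node subsets for Itga1, Itgax, Cd244a, Plcg2, Kit and Prdm1, whereas Il2rb and Tbx21 are high in IELs and Type-1 cells. Ifng is above the Naive-like arrays in both, with IELs above Type-1 cells, and Ccr9 and Satb1 show other orders.

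Among chemokines and secreted cytokines 6 of 34 were higher and 2 lower. Ccl3, Ccl4 and Ccl5 encode chemokines that attract leukocytes, and Xcl1 a chemokine for cross-presenting dendritic cells. Ccl4 read 9.88, 8.92 and 8.46 in the IEL and 5.77, 5.92 and 5.64 in the Naive-like arrays, Ccl5 12.85, 13.24 and 13.08 in the IEL and 9.77, 9.80 and 9.91 in the Naive-like arrays and Xcl1 11.32, 10.84 and 10.87 in the IEL and 7.89, 7.63 and 8.22 in the Naive-like arrays. In Type-1 cells Ccl5 read 12.09, 12.37 and 12.32, and the IEL excess over them was 0.80 ± 0.19 (adjusted p = 0.027). Xcl1 did not differ by the test between IELs and Type-1 cells (difference 0.36 ± 0.23, adjusted p = 0.501). Ifng, which encodes interferon-γ, read 8.67, 8.03 and 7.96 in the IEL and 4.54, 4.73 and 4.59 in the Naive-like arrays, higher by 3.60 ± 0.28. Type-1 cells read 7.55, 6.47 and 6.99 for Ifng, and the IEL excess over them was 1.22 ± 0.28 (adjusted p = 0.024). Tgfb3 was the member of the TGF-β ligands that passed, at 7.06, 8.23 and 8.49 in the IEL and 4.68, 5.20 and 5.62 in the Naive-like arrays, while Tgfb1 differed by -0.25 ± 0.22 without passing. Ltb, which encodes lymphotoxin β of lymphoid tissue, was lower by 1.95 ± 0.23, and Il15 by 1.69 ± 0.24.

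Cytokine receptor chains moved both ways, 4 of 30 higher and 6 lower. Kit, the stem cell factor receptor, read 8.75, 10.33 and 10.75 in the IEL and 6.50, 5.50 and 6.22 in the Naive-like arrays, higher by 3.87 ± 0.52, with IEL replicate 1 the lowest of the 3. Il12rb2, a signalling chain of the interleukin 12 receptor, read 7.32, 8.54 and 8.27 in the IEL and 4.33, 5.02 and 4.53 in the Naive-like arrays, and Il2rb, the shared β chain for interleukins 2 and 15, 9.34, 10.63 and 10.40 in the IEL and 8.50, 8.04 and 8.49 in the Naive-like arrays. Il2rb did not differ by the test between IELs and Type-1 cells (difference -0.55 ± 0.33, adjusted p = 0.459). Il7r, the receptor chain for the survival cytokine interleukin 7, read 7.69, 7.55 and 7.77 in the IEL and 9.64, 9.51 and 9.93 in the Naive-like arrays, lower by 2.02 ± 0.23. Il18r1 read 3.86, 3.69 and 3.84 in the IEL and 6.65, 7.28 and 6.91 in the Naive-like arrays, lower by 3.15 ± 0.31, and Type-1 cells 7.90, 8.64 and 9.33; of the 3 subsets IELs were lowest. Il6ra, the interleukin 6 receptor, read 4.63, 4.79 and 4.32 in the IEL and 8.57, 8.17 and 8.85 in the Naive-like arrays, and Il17ra was lower by 1.79 ± 0.27. For interferon-γ receptors the calls were opposite, Ifngr1 at 0.95 ± 0.25 and Ifngr2 at -1.45 ± 0.35, but the Ifngr1 call was lost without IEL replicate 2 or 3 or Naive-like replicate 1, 2 or 3 or Type-1 replicate 1, 2 or 3 (adjusted p 0.053 to 0.194) and the Ifngr2 call without IEL replicate 1 or 2 or Naive-like replicate 2 or 3 (adjusted p 0.09 to 0.133).

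Of 18 transcription factors and markers of naive and stem-like T cells 12 were lower and none higher, the highest share of lower calls of any group, with a median of -1.38. Lef1, a partner of β-catenin, read 5.41, 5.66 and 6.25 in the IEL and 9.21, 9.20 and 9.41 in the Naive-like arrays, and Myb 4.35, 5.23 and 5.76 in the IEL and 8.28, 8.10 and 8.87 in the Naive-like arrays. The second array row of Myb differed by -0.24, and the mean of its rows gave -1.77. Sox4 read 4.09, 4.36 and 4.83 in the IEL and 7.09, 7.62 and 7.23 in the Naive-like arrays, and Type-1 cells 4.17, 4.92 and 5.68, so that both subsets lay below the Naive-like arrays. For Sox4 a second row differed by -0.99 between IELs and Naive-like cells, and the mean of its rows gave -1.94. Satb1, a chromatin organiser, read 5.29, 5.65 and 6.66 in the IEL and 8.37, 8.50 and 8.47 in the Naive-like arrays, while Type-1 cells at 8.37, 8.38 and 8.41 overlapped with Naive-like cells. Nsg2 was lower by 2.08 ± 0.21.

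Factors of effector and tissue-resident cells ran the other way, 12 of 25 higher and 1 lower. Prdm1, which encodes Blimp-1, read 7.01, 7.34 and 6.74 in the IEL and 3.92, 3.59 and 3.85 in the Naive-like arrays, Bhlhe40 7.05, 7.94 and 8.52 in the IEL and 4.52, 5.17 and 4.82 in the Naive-like arrays and Nfil3 7.23, 7.69 and 8.17 in the IEL and 4.71, 5.58 and 4.51 in the Naive-like arrays. Tbx21, the gene of T-bet, read 7.55, 8.64 and 8.68 in the IEL and 5.89, 5.50 and 5.78 in the Naive-like arrays, higher by 2.57 ± 0.29. Eomes, the related T-box factor, read 3.76, 4.13 and 4.27 in the IEL and 5.75, 5.87 and 6.21 in the Naive-like arrays, lower by 1.89 ± 0.27, so this pair went opposite ways; in Type-1 cells Eomes read 7.24, 7.10 and 8.05. Nr4a2, an orphan nuclear receptor that follows antigen receptor signals, read 9.49, 10.37 and 10.85 in the IEL and 5.43, 6.91 and 5.83 in the Naive-like arrays, and Nr4a1 was higher by 2.12 ± 0.36. Irf4 and Irf8 were higher by 1.91 ± 0.19 and 1.79 ± 0.34; the second row of Irf8 differed by 0.29, and the mean of its rows gave 1.04. Runx3, a factor of CD8 and resident cells, differed by 0.58 ± 0.25 and did not pass (adjusted p = 0.303), though it did with array weights (adjusted p = 0.036).

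The antibody panel used in the study covers 20 measured genes, of which 10 were higher and 1 lower; genes that served in a gate would differ by the choice of cells, and the gates are not given. Tigit read 8.69, 9.42 and 9.75 in the IEL and 3.33, 3.17 and 3.56 in the Naive-like arrays. Nt5e (CD73) and Entpd1 (CD39), which turn extracellular ATP into adenosine, were higher by 2.70 ± 0.34 and 2.45 ± 0.21. Klrb1c (NK1.1) was called at 1.24 ± 0.32 and lost its call without IEL replicate 1, 2 or 3 or Naive-like replicate 1, 2 or 3 or Type-1 replicate 3 (adjusted p 0.06 to 0.142). Foxp3, Gata3 and Ikzf2 (Helios), regulators of T cell fate, differed by -0.36 ± 0.21, -0.19 ± 0.25 and 0.92 ± 0.29, and Ccr6 by 0.01 ± 0.20; none of the 4 passed. Ikzf2 did pass with array weights (adjusted p = 0.0068), with the description set as a block (adjusted p = 0.042), with the replicate number as a block (adjusted p = 0.026) and without Type-1 replicate 1 (adjusted p = 0.045). Ptprc (CD45) differed by -0.26 ± 0.23 and did not pass.

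Genes induced by interferons stood on the lower side: 14 of 37 interferon-stimulated genes were lower and none higher, with a median of -0.84, and 5 of 12 IRG and GBP GTPases were lower, with a median of -0.65. Slfn5, a Schlafen family gene, read 3.87, 3.89 and 3.35 in the IEL and 7.03, 7.31 and 7.36 in the Naive-like arrays. Oasl2, of the oligoadenylate synthetase family, read 4.34, 4.65 and 4.50 in the IEL and 7.19, 7.71 and 7.40 in the Naive-like arrays, Usp18, which removes ISG15 and damps the interferon receptor, 5.66, 5.53 and 5.61 in the IEL and 8.44, 8.59 and 8.54 in the Naive-like arrays, and Ifit1, which binds viral RNA, 5.60, 4.91 and 5.34 in the IEL and 7.69, 7.42 and 8.11 in the Naive-like arrays. Iigp1, an immunity-related GTPase induced by interferon-γ, read 4.70, 4.04 and 4.57 in the IEL and 7.51, 8.13 and 7.97 in the Naive-like arrays, and Irgm1 was lower by 1.47 ± 0.24. Of the 5 GTPase calls 3 were left without any 1 of the 6 IEL and Naive-like arrays. Irf7, a transcription factor of the response, differed by -0.81 ± 0.27 and did not pass (adjusted p = 0.135), though it did without Type-1 replicate 1 (adjusted p = 0.043). The number called in the first list was 9 with IEL replicate 2 or Naive-like replicate 3 left out and 8 with IEL replicate 3 left out, and its median stayed between -1.05 and -0.66. Of 16 genes for MHC class I and antigen processing 3 were called lower, Tap1 at -0.95 ± 0.25, Tapbpl at -0.79 ± 0.20 and H2-Q10 at -1.39 ± 0.31. A second array row of H2-Q10 lay on the other side, and the mean of its rows gave -0.37 (adjusted p = 0.581). Each of the 3 lost its call with 1 array left out: Tap1 without IEL replicate 1, 2 or 3 or Naive-like replicate 1, 2 or 3 or Type-1 replicate 2 (adjusted p 0.061 to 0.167), Tapbpl without IEL replicate 1 or 3 or Naive-like replicate 1, 2 or 3 or Type-1 replicate 1, 2 or 3 (adjusted p 0.051 to 0.137) and H2-Q10 without IEL replicate 1 or 3 or Naive-like replicate 1 or 2 (adjusted p 0.067 to 0.081).

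Interferon acts on such genes through a short DNA motif, the interferon-stimulated response element, written here as GAAANNGAAA and searched on both strands of the RefSeq promoters of GRCm38.p6, from 250 bases before to 50 after each start. Of all 32851 promoters 1131, 3.44%, held a match. A promoter was at hand for 26 of the 37 list genes, and 14 held a match; among the called members it was 5 of 9. Slfn5, which had the largest difference of the list, is shown up to its start as the example of a match, at 155 bases before the start, with the motif in capitals (GRCm38.p6, chr11:82951852-82952101, plus strand):

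Slfn5 promoter: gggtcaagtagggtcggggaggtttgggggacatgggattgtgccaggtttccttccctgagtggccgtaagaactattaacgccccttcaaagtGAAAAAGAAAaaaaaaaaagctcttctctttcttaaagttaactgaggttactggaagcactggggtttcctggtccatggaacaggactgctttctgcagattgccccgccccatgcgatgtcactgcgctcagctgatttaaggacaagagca

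The Oasl2 promoter had no match in this window. A match describes the letters and not binding in these cells.

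Of 19 genes for sterol synthesis and LDL uptake 9 were higher in IELs and none lower, with the highest median of all 42 groups, 1.25. The pathway turns acetyl-CoA into squalene and then sterols. Fdps and Fdft1, which lead to squalene, were higher by 2.06 ± 0.40 and 1.81 ± 0.25. Sqle, squalene epoxidase, read 7.84, 7.13 and 8.06 in the IEL and 5.40, 3.86 and 5.81 in the Naive-like arrays; Cyp51, lanosterol demethylase, 7.46, 6.83 and 7.80 in the IEL and 4.25, 4.36 and 4.61 in the Naive-like arrays. Insig1, which holds back the SREBP regulators when sterols are plentiful, read 7.78, 8.30 and 8.98 in the IEL and 5.20, 5.65 and 6.26 in the Naive-like arrays. The sterol response element TCACNCCAC stood in 1 of the 15 list promoters at hand and in 408, 1.24%, of all.

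For fatty acids 7 of 30 members were higher and none lower. Fabp1 and Fabp2, fatty acid binding proteins of enterocytes that are also on the enterocyte list, were higher by 3.23 ± 0.55 and 3.94 ± 0.36. Dgat1, which makes triglycerides, read 8.05, 9.21 and 10.16 in the IEL and 5.90, 5.80 and 6.70 in the Naive-like arrays, and Acadl, of β-oxidation, was higher by 1.48 ± 0.25. Plin2, a coat protein of lipid droplets, was higher by 1.34 ± 0.20. Enterocytes express lipid genes strongly, and beside these results stand the enterocyte marker means given above; their part was not tested.

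Several housekeeping groups showed no call. By limma's test none of 42 respiratory chain subunits, 46 cytosolic ribosomal proteins or 35 proteasome subunits passed. Their medians were 0.18, -0.22 and -0.05. At an unadjusted p under 0.05 stood 3, 8 and 2 members, against 3150 of all 22180 genes. Of the ribosomal protein genes 35 were lower and 11 higher in the IEL mean. Among them 8 were lower without overlap between the groups, and none was higher without overlap. Over all genes tested 9.25% were lower and 10.9% higher without overlap. Without IEL replicate 1, 1 ribosomal protein gene passed. The largest differences in them were Sdhc at 0.85 ± 0.27, Rpl34 at 1.00 ± 0.35 and Psma1 at 0.58 ± 0.32; Sdhc did pass with array weights (adjusted p = 0.044), and Rpl34 with the replicate number as a block (adjusted p = 0.048). In glycolysis 2 of 19 were called higher and 1 lower: Tpi1 at 1.57 ± 0.23, Pfkp at 1.41 ± 0.33 and Pdk1, a pyruvate dehydrogenase kinase, at -1.37 ± 0.29. The Pfkp call was lost without IEL replicate 2 or 3 or Naive-like replicate 1 or 2 (adjusted p 0.074 to 0.126) and the Pdk1 call without IEL replicate 2 or Naive-like replicate 2 or 3 (adjusted p 0.057 to 0.07), or with the mean of its rows, at -0.89 (adjusted p = 0.084). Of 8 GIMAP GTPases, lymphocyte survival proteins, Gimap7 alone passed, higher by 1.95 ± 0.24.

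Of 25 heat shock proteins and chaperones 12 were higher and none lower, with a median of 0.74. Hspa1a and Hspa1b, the inducible HSP70 genes, were higher by 3.51 ± 0.48 and 3.23 ± 0.54, and Hspa1b read 11.44, 10.96 and 11.27 in the IEL and 8.17, 8.99 and 6.80 in the Naive-like arrays. They are near-identical neighbours, so their rows may share signal and count as 1 observation. Hsph1, which exchanges nucleotide on HSP70, read 9.66, 10.37 and 11.22 in the IEL and 8.46, 8.59 and 8.01 in the Naive-like arrays, and its partner Dnajb1 was higher by 1.99 ± 0.24. Dnaja4 was higher by 1.96 ± 0.27 and the mitochondrial chaperonin Hspd1 by 1.76 ± 0.20. The heat shock element GAANNTTCNNGAA, searched in the same promoters, stood in 4 of 21 list promoters and in 198, 0.603%, of all. Of 22 genes for the unfolded protein response of the endoplasmic reticulum 2 were higher, Sdf2l1 by 1.52 ± 0.30 and the stress factor Atf3 by 1.39 ± 0.20.

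Of 43 immediate early and NF-κB feedback genes, which cells switch on within minutes of a stimulus, 16 were higher and 1 lower. The number called was 9 with IEL replicate 2 or Naive-like replicate 1 left out and 8 with IEL replicate 3 or Naive-like replicate 3 left out. Tnfaip3, which encodes the NF-κB inhibitor A20, read 8.96, 9.90 and 10.14 in the IEL and 6.00, 7.11 and 6.61 in the Naive-like arrays. Dusp1, a MAP kinase phosphatase, read 10.18, 10.93 and 10.84 in the IEL and 7.11, 8.28 and 7.57 in the Naive-like arrays, and Gadd45b was higher by 2.93 ± 0.29. Fos and Junb differed by 1.18 ± 0.34 and 1.52 ± 0.48 and did not pass (adjusted p = 0.075 and 0.114). Fos did pass in a fit of the 6 compared arrays (adjusted p = 0.014), with array weights (adjusted p = 0.014), without Type-1 replicate 1 (adjusted p = 0.028) and without Type-1 replicate 2 (adjusted p = 0.019), and Junb with array weights (adjusted p = 0.0055) and without IEL replicate 1 (adjusted p = 0.032). Cd69, an early activation and retention marker, differed by 1.17 ± 0.46 (adjusted p = 0.238). The labels describe a warm incubation for the gut alone, and the part of handling in the heat shock and immediate early values cannot be told apart from tissue and subset.

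Cell cycle genes were higher in 13 of 42 cases and lower in none. The number called was 8 with IEL replicate 2 or Naive-like replicate 2 left out, 6 with IEL replicate 3 left out and 7 with Naive-like replicate 1 or Naive-like replicate 3 left out. Mki67, the proliferation marker Ki-67, read 6.09, 7.35 and 7.82 in the IEL and 4.87, 4.42 and 4.30 in the Naive-like arrays, higher by 2.56 ± 0.36. Top2a, which untangles DNA, read 4.93, 5.51 and 5.99 in the IEL and 3.94, 3.80 and 3.90 in the Naive-like arrays, and Kif11, a spindle motor, was higher by 1.58 ± 0.30. Of the BCL2 family and caspases 3 of 25 were higher: Bcl2l11 (BIM) by 1.49 ± 0.29 and Pmaip1 (NOXA) by 1.31 ± 0.20, both of which promote cell death, and Bcl2, which opposes it, by 0.81 ± 0.20. The Bcl2 call was lost without IEL replicate 2 or 3 or Naive-like replicate 1, 2 or 3 (adjusted p 0.089 to 0.144), and also with the mean of its rows, after quantile normalization and with array medians subtracted. In this list 5 members were called without Type-1 replicate 1 or 2.

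The aryl hydrocarbon receptor, which senses dietary and microbial ligands, had 3 of 17 pathway members higher and none lower: Ahr itself read 7.09, 7.48 and 8.18 in the IEL and 5.10, 5.83 and 5.58 in the Naive-like arrays, and its feedback targets Ahrr and Tiparp were higher by 1.58 ± 0.29 and 2.76 ± 0.25. A second row of Tiparp differed by 0.98, and the mean of its rows gave 1.87. Cyp1a1 and Cyp1b1, enzymes the receptor induces, differed by -0.38 ± 0.23 and -0.30 ± 0.21 without passing. Of 19 retinoid genes Rbp2 alone passed, at 1.49 ± 0.25 (0.90 as the mean of its rows); it is an enterocyte protein and on the enterocyte list. In TGF-β signalling 4 of 26 were higher and 1 lower; Furin, which cleaves TGF-β from its precursor, was higher by 1.73 ± 0.30. The 5 calls of that list were 2 with IEL replicate 2 or IEL replicate 3 or Naive-like replicate 1 left out and 3 with Naive-like replicate 3 left out. The purinergic genes had 4 of 20 higher and 1 lower: P2rx7, the ATP-gated channel, read 8.51, 9.28 and 9.37 in the IEL and 6.33, 6.24 and 6.65 in the Naive-like arrays, and Dpp4 (CD26), a peptidase that binds adenosine deaminase, was lower by 1.54 ± 0.24. Among eicosanoid genes 3 of 25 were higher and 1 lower. Cysltr2, a cysteinyl leukotriene receptor, read 8.69, 8.80 and 9.64 in the IEL and 5.82, 5.97 and 5.86 in the Naive-like arrays, Ptger4, a prostaglandin E2 receptor, 8.33, 9.08 and 9.31 in the IEL and 5.91, 6.25 and 6.32 in the Naive-like arrays, and Hpgds, which makes prostaglandin D2, was higher by 2.50 ± 0.22; Tbxa2r, the thromboxane receptor, was lower by 2.10 ± 0.32.

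The cell surface differed in its sugars as well. Of 33 genes for sialic acid and other glycans 6 were higher and 6 lower. Cmah, which makes the glycolyl form of sialic acid, read 5.46, 4.58 and 4.54 in the IEL and 8.93, 8.72 and 9.27 in the Naive-like arrays, and St6gal1, which adds α2,6-linked sialic acid, 4.17, 4.25 and 4.32 in the IEL and 8.02, 7.82 and 8.49 in the Naive-like arrays. St8sia6 and St8sia1 were lower by 2.07 ± 0.24 and 1.68 ± 0.22. B4galnt2, which makes the Sd(a) glycan found on intestinal epithelium, was higher by 3.28 ± 0.21, with 7.14, 7.50 and 7.35 in the IEL and 3.96, 4.32 and 3.89 in the Naive-like arrays; Gcnt1, which branches O-glycans, was higher by 2.72 ± 0.25, and St3gal6 by 1.76 ± 0.21. Of 20 Ly6 and Ms4a surface protein genes 8 were lower and 1 higher. Ly6c2, of the Ly-6C pair, read 3.89, 3.54 and 3.97 in the IEL and 9.81, 9.54 and 9.96 in the Naive-like arrays. Ms4a4b read 5.46, 5.35 and 5.14 in the IEL and 9.03, 8.84 and 9.42 in the Naive-like arrays, and Ms4a4c was lower by 3.50 ± 0.25. Of 17 tetraspanins 2 were higher and 1 lower: Tspan32, a tetraspanin that restrains T cell proliferation, was lower by 3.93 ± 0.43, and Tspan3 higher by 1.40 ± 0.21.

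Calcium-binding and protease families changed in part. Of 17 S100 proteins and annexins 2 were higher and 3 lower. S100a6, a calcium-binding protein, read 5.14, 4.94 and 5.15 in the IEL and 9.03, 8.88 and 9.18 in the Naive-like arrays; S100a4 and Anxa6 were lower by 1.99 ± 0.24 and 2.03 ± 0.23, and S100a1 and Anxa4 higher by 1.93 ± 0.30 and 1.21 ± 0.23. Of 19 cathepsins and their inhibitors 4 were higher and 1 lower: Ctss, cathepsin S, was lower by 1.58 ± 0.22, and Cst7, an inhibitor found in cytotoxic cells, was higher by 1.09 ± 0.18. The 5 calls of this list were 2 with IEL replicate 2 left out and 3 with IEL replicate 3 or Naive-like replicate 1 left out. Ion channels and pumps had 4 of 33 in each direction. Car2, a carbonic anhydrase listed with them that epithelium also expresses, read 9.11, 9.14 and 9.10 in the IEL and 2.92, 3.23 and 3.16 in the Naive-like arrays. Kcnk5, a potassium channel, was higher by 1.55 ± 0.22. Kcnn4, the calcium-activated potassium channel of T cells, was lower by 2.09 ± 0.26, Trpv2 by 1.92 ± 0.21 (-1.26 as the mean of its rows) and Orai2, a calcium channel subunit, by 1.79 ± 0.22. Of 27 amino acid and metal transporters Slc39a4, a zinc importer of the gut, and Slc3a2, the heavy chain shared by large amino acid transporters, were higher by 1.66 ± 0.29 and 1.26 ± 0.25. In 35 genes of actin and cell shape 2 were higher and 3 lower; Myo1e, a membrane-bound myosin, read 6.58, 7.72 and 7.85 in the IEL and 4.20, 3.88 and 4.21 in the Naive-like arrays, and Actn1, an actin cross-linker, was lower by 2.25 ± 0.30; 3 of these 5 calls were left without IEL replicate 3. The Notch and Wnt lists gave 1 of 20 higher and, of 21, 1 higher and 1 lower, with Lef1 the lower one. Hes1, the Notch member, and Rnf43, the higher Wnt member, lost their calls, Hes1 without IEL replicate 2 or 3 or Naive-like replicate 1, 2 or 3 or Type-1 replicate 2 (adjusted p 0.053 to 0.149) and Rnf43 without IEL replicate 2 or 3 or Naive-like replicate 2 or 3 (adjusted p 0.062 to 0.077).

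**Figure D4:**
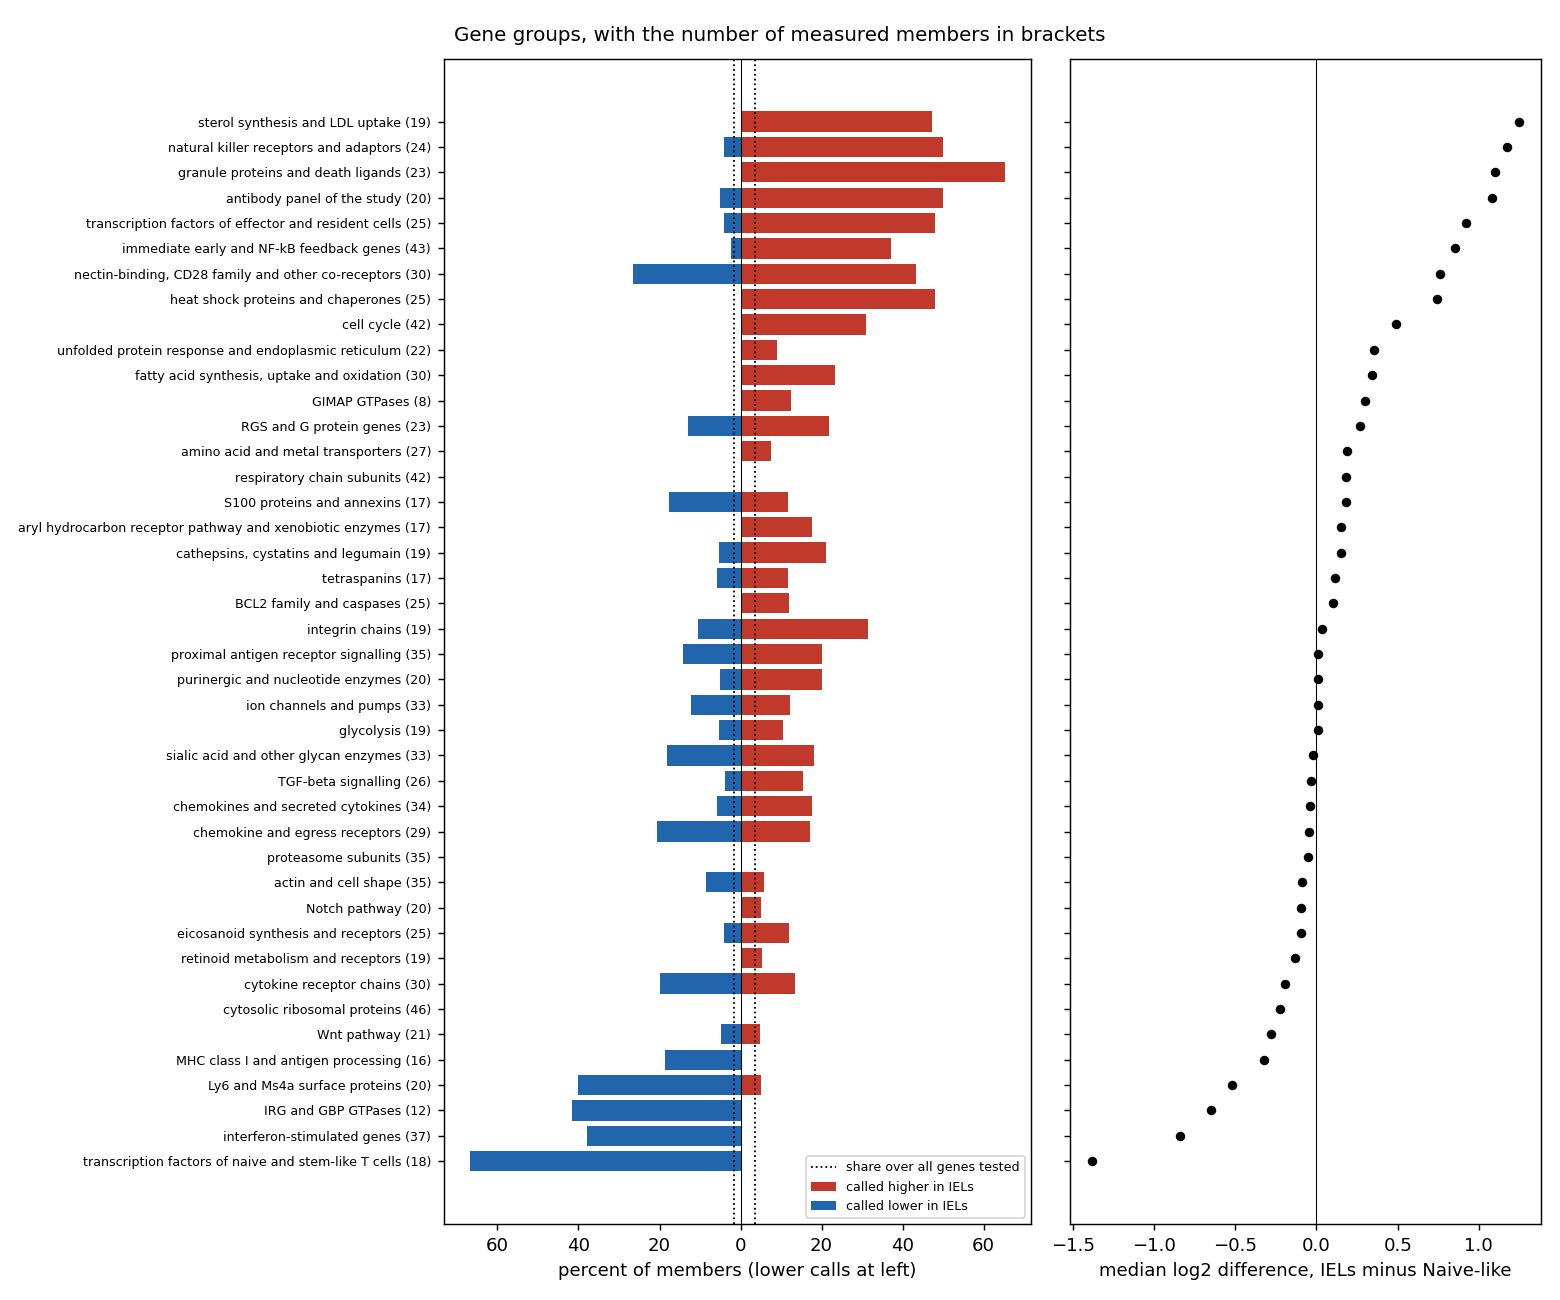
Left, percent of the measured members of 42 gene groups called higher (red, to the right) or lower (blue, to the left) in IELs, with the 3.57% higher and 1.62% lower of all genes as dotted lines; right, the median log2 difference of each group. Sterol synthesis has the highest median, granule proteins the highest share of higher calls, and the factors of naive and stem-like cells the lowest median and the highest share of lower calls.

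Several of the 30 most changed genes in each direction belong to none of these groups. Glp1r, the receptor for the gut hormone GLP-1, read 8.33, 9.17 and 8.84 in the IEL and 4.27, 3.81 and 3.69 in the Naive-like arrays, and Type-1 cells 4.03, 4.28 and 3.94. Dapk2, a calmodulin-regulated kinase, read 9.35, 9.51 and 9.47 in the IEL and 4.39, 4.90 and 3.85 in the Naive-like arrays, Osbpl3, an oxysterol-binding protein, 7.98, 8.83 and 8.70 in the IEL and 4.81, 4.26 and 3.94 in the Naive-like arrays, and Arap3, a regulator of small GTPases, 7.47, 8.86 and 9.05 in the IEL and 4.77, 4.40 and 4.44 in the Naive-like arrays. Apol9b, an apolipoprotein L family gene, was higher by 4.26 ± 0.31. On the lower side Atp8b4, a lipid-flipping ATPase, read 3.60, 3.74 and 4.69 in the IEL and 9.17, 9.28 and 9.22 in the Naive-like arrays, and Dapl1 4.91, 4.67 and 4.61 in the IEL and 8.47, 8.75 and 9.55 in the Naive-like arrays. Tlr1, a partner of TLR2 in sensing bacterial lipopeptides, read 5.59, 5.49 and 5.07 in the IEL and 8.38, 9.08 and 9.31 in the Naive-like arrays, and Slamf6, a SLAM family receptor, 6.31, 6.33 and 7.89 in the IEL and 10.05, 9.82 and 10.55 in the Naive-like arrays. Cd55, which protects cells from complement, was lower by 3.37 ± 0.20, Pde2a, a phosphodiesterase, by 2.95 ± 0.35, and Aff3 by 2.94 ± 0.26. Lack of overlap between the IEL and Naive-like arrays was a condition for these genes to be listed, so it adds nothing to their values.

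MicroRNA genes gave 10 calls, 5 in each direction, among 483 tested. In both directions this is a smaller share than the 3.57% higher and 1.62% lower over all genes. The rows of microRNA genes read the precursor or its host transcript, so a value is not a level of mature microRNA. Mir342 and Mir5104 kept their calls with each array left out. Both lie inside a protein-coding gene by the RefSeq table of GRCm38.p6, Mir342 in Evl and Mir5104 in Zc3h12d. Their mature forms are shown from RefSeq with the seed, bases 2 to 8, in capitals, since the seed pairs with target messages:

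mmu-miR-342-3p: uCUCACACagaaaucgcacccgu

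mmu-miR-342-5p: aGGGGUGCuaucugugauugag

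mmu-miR-5104: cUGUGCUAgugagguggcucagca

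The 3 seeds differ from each other. Mir342 read 6.21, 6.03 and 6.66 in the IEL and 8.06, 9.64 and 8.74 in the Naive-like arrays, lower by 2.51 ± 0.43 (adjusted p = 0.0035), while its host gene Evl, an actin regulator, differed by -0.54 ± 0.20 and did not pass (adjusted p = 0.187), though it did after quantile normalization (adjusted p = 0.016). Mir5104 read 4.16, 4.84 and 4.66 in the IEL and 6.15, 7.18 and 6.47 in the Naive-like arrays, lower by 2.04 ± 0.29 (adjusted p = 0.00086); Zc3h12d, its host and an RNA-degrading regulator, differed by -0.72 ± 0.31 without passing (adjusted p = 0.311). For both, the row of the microRNA fell further in the mean than the row of its host, a difference between rows that was not itself tested.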

How the data were processed

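RNA of sorted γδ T cells was measured on 3 Affymetrix Mouse Gene 2.0 ST arrays per subset, and samples were grouped by their titles. The deposited values are on a log2 scale; the authors used oligo and RMA, a method that puts arrays on a common scale and joins the probes of a transcript, per the submitters' processing notes. The sources used here give neither versions nor filters. The table holds 41345 rows with values from 0.785 to 13.5 and array medians from 4.25 to 4.43; it holds no detection calls, and the number of arrays limits the precision. By the platform's annotation 23521 rows had 1 symbol, 1814 several and 16010 none. Genes lacking such a 1-symbol row are not analysed here. The 22180 genes were each taken at the row of highest mean, of which 1082 genes had more than 1.

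Differences were computed with limma 3.58.1 (R 4.3.3) as two-sided contrasts of subset means fitted by lmFit and eBayes to 9 arrays, with Benjamini-Hochberg adjustment over all 22180 genes and a threshold of 0.05. The ± after a difference is its standard error. The script was tested on simulated data. The comparison and the 42 functional and 14 marker lists were chosen with earlier results of these data known, and 1161 of 1290 listed genes were measured. Genes named in the text are, per direction, the 30 largest differences among called genes that do not overlap and whose higher mean is above 4.52, without predicted genes, non-coding genes and receptor segments; up to 5 called members per list and direction, or the 2 largest differences where none was called; all antibody targets; and up to 8 microRNA genes. A further 49 were named after their values were seen: members that did not pass, the host genes of microRNAs, further members of the granule, NK receptor, co-receptor, lipid, chaperone and transcription factor lists, and the genes under other observations. Alternatives covered the arrays in the fit, removal of genes below the 40th percentile, scaling, spread, weights, rows, blocks and each array left out. Tables and plots used Python 3.11.15, pandas 2.3.3 and matplotlib 3.10.9.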

Additional observations from a re-analysis of the deposited data

How the results depend on the processing

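Each of the 274 named calls kept its direction under every alternative. Since the groups did not overlap for any called gene but Nr4a3, refits of the same rows could hardly turn a sign. A kept direction is therefore no test of these calls. Of them 193 kept their side of the threshold in all alternatives, and of the named genes that did not pass, 25 passed in none. With each array left out in turn, the genes called ranged from 826 (without IEL replicate 2) to 1227, those higher from 551 to 851 and those lower from 240 to 391; 218 of the 274 named calls held throughout. The arrays without the date code, 2 per subset and so fewer degrees of freedom, gave 534 calls, 367 higher and 167 lower, lost 74 of the named calls and moved the counts of 21 of 39 lists with a call by over 1.5 times. Array weights, lowest for IEL replicate 1 at 0.441, gave 1920 calls, 1355 higher and 565 lower. Fitting the rows with several or no symbols along, chosen after seeing the data, gave 744 calls among the same genes, 516 higher and 228 lower, with 3.28 prior degrees of freedom in place of 6.00. Array medians subtracted gave 996 calls and quantile normalization 1279; both turned the sign of the small medians of the antigen receptor signalling, glycolysis, purinergic and ion channel lists. The filter on dim genes left no red blood cell marker.

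A fit with the replicate number as a block gave 1378 calls, and a fit blocked on the description set gave 1397. Deviations of IEL and Naive-like arrays correlated at 0.087, -0.015 and 0.229 by replicate number and at 0.075, 0.073 and 0.229 by description set, 0.229 being the pair with the date code. Not every correlation was over 0.1, and no pairing was used.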

Other observations

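A further 817 called genes belong to no list and were not taken by the naming rule. The following were chosen after their values were seen. Cd7, a surface protein of T and NK cells, read 12.65, 12.94 and 12.75 in the IEL and 9.73, 9.05 and 10.11 in the Naive-like arrays, higher in IELs by 3.15 ± 0.27. Spry2, an inhibitor of growth factor signalling, was higher by 3.64 ± 0.33, and Itgad, an integrin α chain that pairs with β2, by 3.61 ± 0.19. Abcb1a, a drug efflux pump, read 9.68, 9.59 and 10.18 in the IEL and 6.50, 6.60 and 6.39 in the Naive-like arrays, and Lat2, an adaptor related to LAT, was higher by 2.95 ± 0.21. Plek, pleckstrin, and Fgl2, a secreted fibrinogen-like protein, were higher by 3.55 ± 0.43 and 3.08 ± 0.26.

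On the lower side Cd163l1, a scavenger receptor of γδ T cells, read 4.06, 5.31 and 4.44 in the IEL and 6.88, 6.70 and 7.32 in the Naive-like arrays, lower by 2.37 ± 0.32. Tlr7, a sensor of single-stranded RNA, was lower by 2.36 ± 0.44, and Sidt1, an RNA transporter family gene, by 2.62 ± 0.36. The second array row of Sidt1 differed by -0.08, and the mean of its rows gave -1.35. Lgals1, which encodes galectin 1, read 7.75, 7.23 and 7.54 in the IEL and 9.69, 9.55 and 9.88 in the Naive-like arrays. The arrays of the 2 groups did not overlap for any of these genes, as for every called gene but Nr4a3.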
